A study of Homo sapiens with 6 samples.

Results

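The chemokines of the human colorectal cancer cell line DLD1 described here number 6: CXCL1, CXCL2, CXCL3, CXCL5, CXCL8 and CCL20. They were selected on measured values, since the rule took the chemokines whose FPKM was lower in both expression comparisons of the study. FPKM is the number of fragments per kilobase of gene, scaled to the size of the library. All 6 genes had a row in the co-culture table, among 21519 genes, and 5 had a row in the knockdown table, among 9450 genes that each carry 1 listed m7G peak. CXCL3 had no row in the knockdown table, so its level and its m7G after knockdown were not analysed here and its place in the group rests on the co-culture libraries.

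The study held 6 libraries of total RNA, 1 in each group. S-CAFs-w13 was DLD1 of WT genotype grown beside fibroblasts named S-CAFs, and the series title speaks of senescent CAFs. DLD1-W13CM, also of WT genotype, was taken as the co-culture with CAFs by elimination. Its title neither says so nor explains CM, so a difference in the kind of culture cannot be told apart from one in the kind of fibroblast. METTL1 knockdown input and METTL1 knockdown IP came from DLD1 with METTL1 knocked down by one construct (sh2), and control input and control IP from DLD1 with sh-NT. IP is the fraction pulled down with an antibody to 7-methylguanosine (m7G), and input is the RNA before the pull-down. All groups share the DLD1 line and the same serum-containing medium. The fibroblast's origin, its passage and the contact between the cultures are unknown here.

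Chemokines are small secreted proteins that guide leukocytes along a concentration gradient through G protein-coupled receptors. CXCL1, CXCL2, CXCL3, CXCL5 and CXCL8 belong to the CXC family members that carry a glutamate-leucine-arginine motif and attract neutrophils through the receptor CXCR2, with CXCL8 also acting on CXCR1. CCL20 attracts cells that carry the receptor CCR6, among them Th17 cells and immature dendritic cells. In the gut, epithelial cells make these chemokines when interleukin 1, tumour necrosis factor, interleukin 17 or bacterial products activate the transcription factor NF-kB, and the mRNAs are short-lived because decay factors bind them. METTL1, with its partner WDR4, is a methyltransferase that places m7G inside tRNAs and some other RNAs.

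The 5 CXC genes lie within 358627 bases of chromosome 4 (GRCh38.p14, 73740569 to 74099195) in the order CXCL8, CXCL1, CXCL5, CXCL3 and CXCL2, the first pair on the plus strand and the others on the minus strand. CCL20 lies alone on chromosome 2 (227813842 to 227817556, plus strand). The promoter sequences are shown as background, since NF-kB is a known regulator of these genes. Its part in their levels was not tested. The 110 bases before each RefSeq start (RefSeq, build GRCh38.p14) are given 5′ to 3′ on the gene's own strand. Capitals mark GGAATTTCC, a sequence of the kind that NF-kB binds. In CCL20 they mark a run of overlapping matches to the looser pattern of GGG, any 5 bases and CC. That run was picked for lying at a similar distance from the start.
CXCL1: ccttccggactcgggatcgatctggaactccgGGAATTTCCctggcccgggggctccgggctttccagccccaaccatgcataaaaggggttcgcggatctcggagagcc
CXCL2: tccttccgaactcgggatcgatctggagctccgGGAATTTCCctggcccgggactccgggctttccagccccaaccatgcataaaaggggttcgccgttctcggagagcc
CXCL3: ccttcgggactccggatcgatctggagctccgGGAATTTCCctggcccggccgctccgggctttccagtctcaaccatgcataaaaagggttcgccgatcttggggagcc
CXCL5: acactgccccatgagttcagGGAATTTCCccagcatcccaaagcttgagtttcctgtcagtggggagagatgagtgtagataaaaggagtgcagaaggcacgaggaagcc
CXCL8: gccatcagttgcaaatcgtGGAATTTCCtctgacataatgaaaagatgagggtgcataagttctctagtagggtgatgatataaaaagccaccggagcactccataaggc
CCL20: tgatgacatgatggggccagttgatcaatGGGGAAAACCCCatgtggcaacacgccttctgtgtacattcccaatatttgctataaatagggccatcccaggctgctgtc

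These windows are chr4:73869283-73869392 for CXCL1, chr4:74099196-74099305 for CXCL2, chr4:74038690-74038799 for CXCL3, chr4:73998678-73998787 for CXCL5, chr4:73740459-73740568 for CXCL8 and chr2:227813732-227813841 for CCL20. GGAATTTCC was found in the 250 bases before the start of 5 of the 6 genes, searched on both strands, and in 117 of all 27305 promoters of the RefSeq table (0.428%). It began 78 bases before the start in CXCL1 and CXCL3, 77 in CXCL2, 90 in CXCL5 and 91 in CXCL8. The marked run of CCL20 began 81 bases before its start. Only matches at a similar distance were marked in CCL20, so this distance was set by the marking and is no finding. Other matches of CCL20 to the looser pattern began 207 and 21 bases before its start and were left unmarked. The looser pattern, which overlaps GGAATTTCC wherever a G precedes or a C follows it, was held by all 6 genes and also by 53.7% of all promoters. ATAAA, part of the usual TATA box, stood between 40 and 15 bases before the start in all 6 genes and in 6.97% of all promoters. TGANTCA, a pattern of AP-1 sites, was held by CXCL8 only, 137 bases before its start, and by 6.6% of all promoters. The same patterns were counted over 8669 promoters of genes that averaged 1 FPKM or more in the co-culture libraries. There the shares were 0.427% for GGAATTTCC, 70.3% for the looser pattern, 3.61% for ATAAA and 3.86% for TGANTCA. The patterns were chosen after the sequences and the members were known, and a match is a run of letters, not a shown binding site. CXCL1, CXCL2 and CXCL3 shared 88.4% to 93.7% of aligned positions over these windows, and the 12 other pairs of members shared 44% to 55%. CXCL1, CXCL2 and CXCL3 are close paralogs, and reads can be split or lost among them in counting.

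CXCL5 was by far the most abundant of the 6 genes in each of the 4 expression libraries. It stood at 401.9 FPKM in S-CAFs-w13 and 1668 FPKM in DLD1-W13CM, where it was the 47th and the 17th highest of all 21519 genes. In the knockdown table it stood at 142 FPKM in METTL1 knockdown input and 436.3 FPKM in control input, the 147th and the 31st highest of 9450 genes. CXCL5 alone made up 97.1% of the summed FPKM of the 6 genes in S-CAFs-w13 and 92.2% in DLD1-W13CM. Of the sum over the 5 listed genes it made up 88.0% in METTL1 knockdown input and 83.9% in control input. The other members stayed between 0.24 and 5.80 FPKM in S-CAFs-w13 and between 11.98 and 37.9 FPKM in DLD1-W13CM. They stayed between 0.705 and 9 FPKM in METTL1 knockdown input and between 4.56 and 42.7 FPKM in control input. The tables were normalized separately, and a level in one is not compared with a level in the other.

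**Figure D1:**
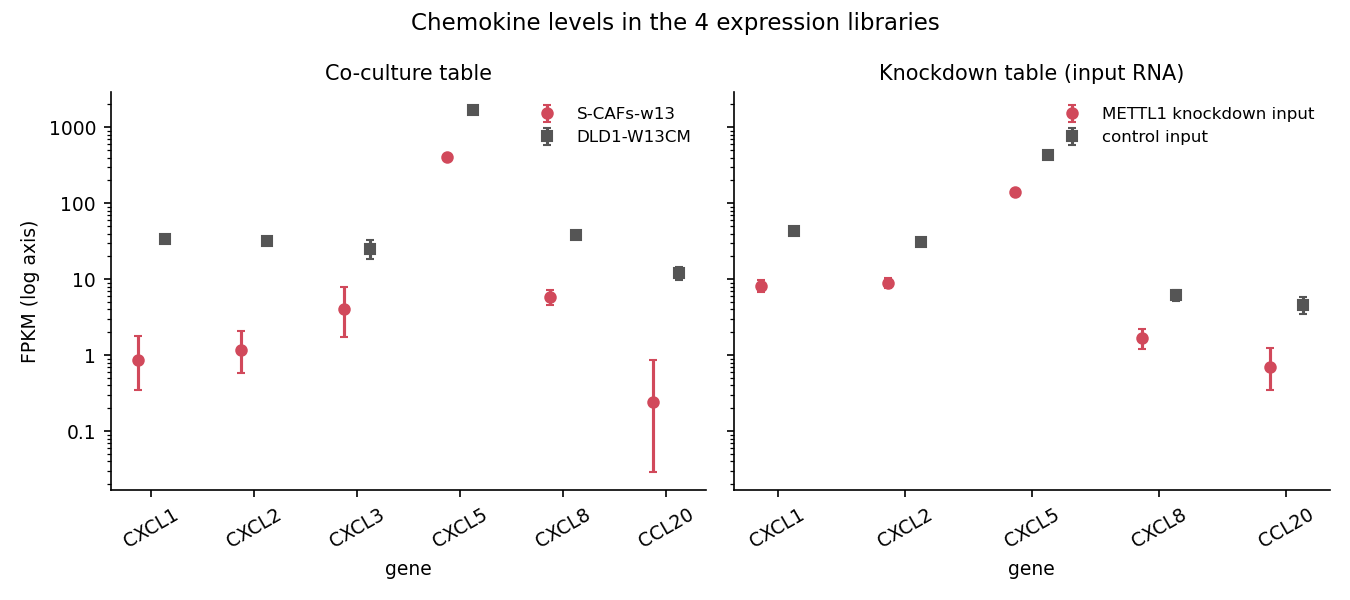
FPKM (log axis) of each chemokine in the 4 expression libraries, with S-CAFs-w13 and DLD1-W13CM on the left and METTL1 knockdown input and control input on the right; bars are exact 95% Poisson intervals from the smallest whole read numbers the values allow and cover counting error only. Each gene on the left is lower in S-CAFs-w13 than in DLD1-W13CM. Each gene on the right, where CXCL3 is absent, is lower in METTL1 knockdown input than in control input. CXCL5 is the highest in each library.

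The order below CXCL5 differed between the libraries. In S-CAFs-w13 it ran CXCL8, CXCL3, CXCL2, CXCL1 and CCL20, and the counting intervals of each neighbouring pair overlapped. In DLD1-W13CM it ran CXCL8, CXCL1, CXCL2, CXCL3 and CCL20, and only the step to CCL20 was larger than the counting intervals. The CXCL3 intervals rest on its smallest possible read numbers, 8 in S-CAFs-w13 and 50 in DLD1-W13CM. A higher multiple of these reads would narrow them, so the overlaps of CXCL3 with its neighbours are not settled. In METTL1 knockdown input the order was CXCL2, CXCL1, CXCL8 and CCL20, with a gap beyond the intervals between CXCL1 and CXCL8. In control input it was CXCL1, CXCL2, CXCL8 and CCL20, and only CXCL8 and CCL20 overlapped.

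The co-culture libraries set tumour cells grown with S-CAFs against those grown with CAFs, if DLD1-W13CM is the CAF culture. On the log2(FPKM + 1) scale all 6 chemokines were lower in S-CAFs-w13 by 2-fold or more, as were 7.92% of the 14739 genes that averaged 1 FPKM or more, while 9.08% were higher by as much. With the authors' own log2 fold changes, which differ in scaling and have no added 1 FPKM, those shares were 16.2% lower and 11.4% higher. All 6 chemokines stayed lower. By plain FPKM the shares were 12.6% lower and 14.1% higher. The rule used this contrast, so the count describes the choice and is no test. With 1 library a group there is no replicate check and no test of any difference in expression below. Intervals in parentheses are exact 95% counting intervals of the plain FPKM ratio, which cover counting error only. In bulk RNA, fewer cells making a chemokine and less of its mRNA per cell cannot be told apart.

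CXCL1, also known as GRO-alpha, stood at 0.869 FPKM in S-CAFs-w13 and 33.6 FPKM in DLD1-W13CM, from at least 7 and 276 reads. Its S-CAFs-w13 level was 38.7-fold lower (18.5 to 97.1), the second lowest log2(FPKM + 1) ratio of all 14739 genes. CXCL2, its neighbour in sequence and function, stood at 1.18 FPKM in S-CAFs-w13 and 31.98 FPKM in DLD1-W13CM, from at least 11 and 304 reads. The CXCL2 level was 27.1-fold lower (14.9 to 54.9). CXCL3, the third of these paralogs, stood at 4.06 FPKM in S-CAFs-w13 and 24.9 FPKM in DLD1-W13CM. It was 6.13-fold lower (2.88 to 14.97), and its interval lay below that of CXCL1 but overlapped that of CXCL2. The CXCL3 interval is wide because the values fix its reads only as whole multiples of 8 and 50.

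CXCL8, or interleukin 8, stood at 5.80 FPKM in S-CAFs-w13 and 37.9 FPKM in DLD1-W13CM, 6.53-fold lower (5.17 to 8.34). CXCL5, first described as an epithelial neutrophil attractant, was 4.15-fold lower (4.04 to 4.27), from at least 6340 reads in S-CAFs-w13 and 26828 in DLD1-W13CM. It had the smallest fold and the narrowest interval of the 6. CCL20, the ligand of CCR6, stood at 0.24 FPKM in S-CAFs-w13 and 11.98 FPKM in DLD1-W13CM. Its fold was the largest of the 6, 50.02-fold lower, but it rests on at least 2 reads in S-CAFs-w13 against 102 in DLD1-W13CM, with an interval of 13.5 to 419. CXCL5 had an interval below those of CXCL8, CXCL2, CXCL1 and CCL20, and CXCL8 one below those of CXCL2, CXCL1 and CCL20. At its smallest possible read numbers, CXCL3 had a wide interval that overlapped those of CXCL5, CXCL8, CXCL2 and CCL20 and lay below that of CXCL1 alone. A higher multiple of those reads would narrow it, so these overlaps are not settled. The log2 fold changes in the authors' deposited table, which have no added 1 FPKM, were -5.79 for CCL20, -5.42 for CXCL1, -4.90 for CXCL2, -2.85 for CXCL8, -2.76 for CXCL3 and -2.20 for CXCL5.

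The knockdown libraries address how RNA levels differ when METTL1 is reduced. METTL1 itself stood at 3.28 FPKM in METTL1 knockdown input and 5.80 FPKM in control input, 1.77-fold lower (1.37 to 2.29). WDR4 stood at 15.6 FPKM in METTL1 knockdown input and 13 FPKM in control input. With a single construct, effects of sh2 on other targets and those of reduced METTL1 cannot be told apart. All 5 listed chemokines were lower by 2-fold or more in METTL1 knockdown input, again as the rule selected them, beside 0.56% of the 8400 genes that averaged 1 FPKM or more.

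CXCL1 stood at 8.10 FPKM in METTL1 knockdown input and 42.7 FPKM in control input, from at least 122 and 579 reads. It was 5.28-fold lower (4.33 to 6.47), the third lowest log2(FPKM + 1) ratio of the 8400 genes. CXCL2 stood at 9 FPKM in METTL1 knockdown input and 30.5 FPKM in control input, 3.39-fold lower (2.83 to 4.09). CXCL5, at 142 FPKM in METTL1 knockdown input and 436.3 FPKM in control input, was 3.07-fold lower (2.97 to 3.18). It was again the member with the smallest fold. CXCL8 stood at 1.66 FPKM in METTL1 knockdown input and 6.18 FPKM in control input, 3.72-fold lower (2.64 to 5.33). CCL20 stood at 0.705 FPKM in METTL1 knockdown input and 4.56 FPKM in control input, 6.47-fold lower (3.38 to 13.6). CCL20 had the fewest reads there too, at least 11 in METTL1 knockdown input and 64 in control input. The interval of CXCL1 lay above those of CXCL2 and CXCL5, and that of CCL20 above that of CXCL5, while all other pairs overlapped.

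**Figure D2:**
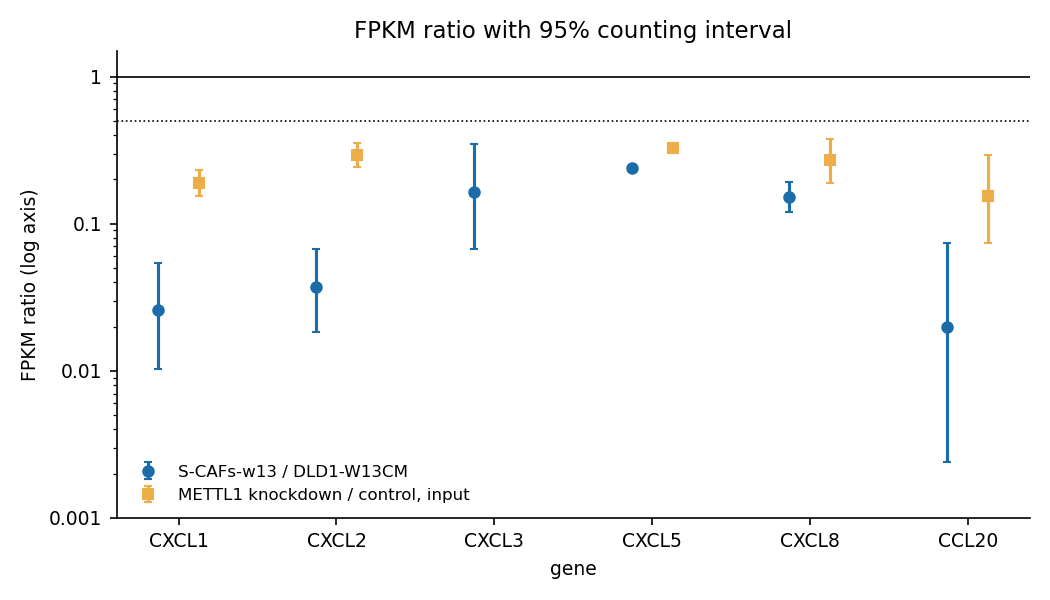
FPKM ratio (log axis) of each chemokine in S-CAFs-w13 over DLD1-W13CM (circles) and in METTL1 knockdown input over control input (squares), with exact 95% counting intervals; the solid line marks equal levels and the dotted line a 2-fold lower level. The co-culture ratios spread from 0.02 for CCL20 to 0.241 for CXCL5, and the knockdown ratios from 0.155 for CCL20 to 0.326 for CXCL5.

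The 2 comparisons share no library. Of the 5 genes in both tables, 3 had co-culture and knockdown counting intervals that did not overlap, CXCL1, CXCL2 and CXCL5, each with the lower ratio in the co-culture. Over all genes of both tables with such intervals, 2025 of 7834 (25.8%) had a co-culture ratio below the knockdown ratio in the same sense. For CXCL8 and CCL20 the intervals overlapped. CCL20 had the largest and CXCL5 the smallest fold in each comparison. Variation between cultures was not measured, so these differences in size have no replicate check.

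Of 7945 genes that averaged 1 FPKM or more in each comparison, 12 were at least 2-fold lower in both, 0.151%. The 5 chemokines were chosen for this, and 7 other genes made up the rest. These were PI3, SAA1, ZC3H12A, PDZK1IP1, AL139035.1, AC040169.1 and RNU2-63P. PI3, which encodes the elastase inhibitor elafin, stood at 1.11 FPKM in S-CAFs-w13 and 16.4 FPKM in DLD1-W13CM, and at 5.81 FPKM in METTL1 knockdown input and 17.7 FPKM in control input. SAA1, an acute-phase protein, stood at 39.8 FPKM in S-CAFs-w13 and 168.1 FPKM in DLD1-W13CM, and at 9.67 FPKM in METTL1 knockdown input and 37.1 FPKM in control input. ZC3H12A encodes an RNase, Regnase-1, that degrades mRNAs of inflammation and is itself a target of NF-kB. Its level was 5.10 FPKM in S-CAFs-w13 and 18.4 FPKM in DLD1-W13CM, and 14.5 FPKM in METTL1 knockdown input and 38.4 FPKM in control input. PDZK1IP1, a small membrane protein of epithelia, stood at 5.59 FPKM in S-CAFs-w13 and 15.9 FPKM in DLD1-W13CM, and at 3.89 FPKM in METTL1 knockdown input and 11.7 FPKM in control input. AL139035.1 and AC040169.1 were at most 2.3 FPKM in any of the 4 libraries. They passed the filter only through DLD1-W13CM and control input, so their direction follows in part from the filter. RNU2-63P stood at 0.829 FPKM in S-CAFs-w13 and 3.25 FPKM in DLD1-W13CM, where it passed only through DLD1-W13CM. In the knockdown it stood at 16.4 FPKM in METTL1 knockdown input and 35.01 FPKM in control input.

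By distance over the pair of log2(FPKM + 1) ratios, the genes most like the median of the 5 chemokines, at -3.39 and -1.66, were PI3, SAA1, RNVU1-6, NFKBIZ, HIST1H4B, FAM111B, HIST1H2AK and HENMT1. PI3 was the nearest, at a distance of 0.4, followed by SAA1 at 1.35. RNVU1-6, HIST1H4B and HIST1H2AK were listed at 0 in S-CAFs-w13, so their co-culture ratio rests on DLD1-W13CM. The knockdown ratios were nearer to 0, at -0.31 for RNVU1-6, -0.18 for HIST1H4B, -0.02 for FAM111B, -0.15 for HIST1H2AK and -0.39 for HENMT1. NFKBIZ, the IkB-zeta protein that NF-kB needs at some chemokine promoters, had ratios of -2.37 in the co-culture and -0.61 in the knockdown. The measure spans 4 libraries and describes them only.

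**Figure D3:**
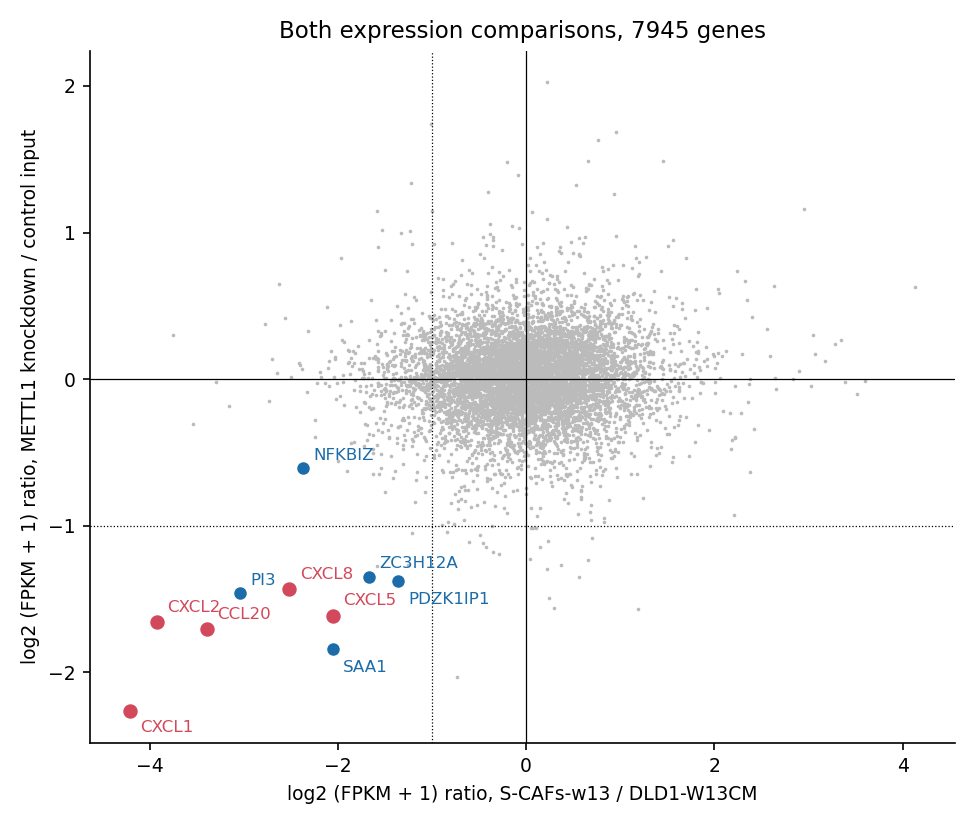
log2(FPKM + 1) ratio of S-CAFs-w13 over DLD1-W13CM (x axis) against METTL1 knockdown input over control input (y axis) for 7945 genes (grey), with the 5 chemokines of both tables in red and PI3, SAA1, ZC3H12A, PDZK1IP1 and NFKBIZ in blue; dotted lines mark 2-fold lower. The chemokines lie in the lower left corner, with CXCL1 at -4.21 and -2.27, and NFKBIZ lies above the 2-fold line of the knockdown.

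The m7G values were not used to choose the members. Each of the 5 chemokines of the knockdown table had 1 listed peak, and in all 5 a block of the peak covered the RefSeq start of the gene. Of 8514 peaks whose gene could be matched to RefSeq, 48.9% did so. The peak of CXCL1 (chromosome 4, 73869393 to 73869928) began exactly at the RefSeq start, and so did that of CCL20 (chromosome 2, 227813842 to 227815462). Those of CXCL8 (chromosome 4, 73740506 to 73741594), CXCL2 (74097755 to 74099293) and CXCL5 (73998287 to 73998779) began 63, 98 and 102 bases before it. The CXCL5 peak also lies where RefSeq places a noncoding gene, and it is unknown here whether counting used strand.

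The authors' deposited table classes the peak of CXCL8 as 5' UTR and the other 4 as CDS (coding sequence). For 93.8% of all peaks the single position that the table lists equals the middle of the largest block. The listed position lay 44 bases after the RefSeq start in CXCL8, 72 in CCL20, 88 in CXCL1, 145 in CXCL5 and 284 in CXCL2. The CDS class of these 4 peaks thus goes with peaks that reach the 5' end of the gene. Of the 2622 matched peaks of CDS class, 38.6% covered the RefSeq start. The cap of an mRNA carries m7G too, and a peak that spans the 5' end does not separate cap m7G from internal m7G.

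**Figure D4:**
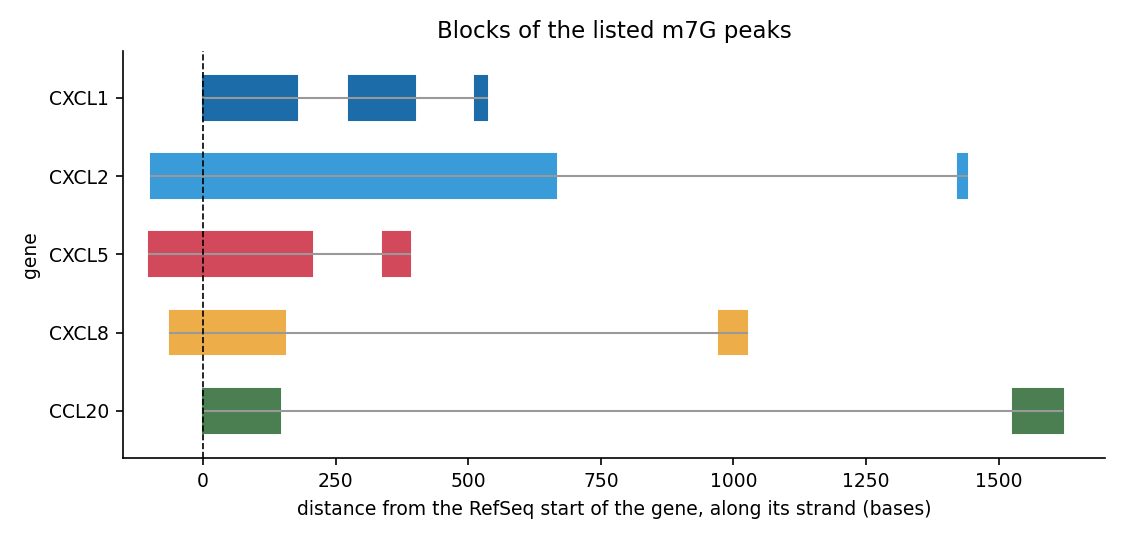
Blocks (boxes) of the listed m7G peak of each chemokine, by distance in bases from the RefSeq start along the gene's strand; thin lines join blocks across the skipped sequence and the dashed line marks the start. All 5 peaks hold a block over the start, and the CXCL2 peak has the longest block, 763 bases.

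Summed over blocks, the peak measured 240 bases in CCL20, 270 in CXCL8, 325 in CXCL1, 359 in CXCL5 and 780 in CXCL2, against a median of 271 over all peaks. The fold enrichment of IP over input in the authors' deposited table, whose libraries are not stated, was 26.7 for CXCL1, 23.8 for CXCL2 and 20.3 for CXCL5. These 3 lay above 73.4% to 83.0% of all 9450 peaks, whose median was 12.4. CXCL8 had 11.9, near that median, and below the median of 14.9 for 5' UTR peaks. CCL20 had 6.95, below the median of 9.93 for CDS peaks. CCL20 and CXCL8 are also the members with the lowest input levels, and the part of read number in their enrichment was not tested.

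The m7G change between the lines was small for all 5 peaks. The table does not state which line is on top, and values are read here as knockdown over control. The log2 change in the authors' deposited table was 0.115 for CXCL1, 0.0523 for CXCL2, -0.129 for CCL20, -0.206 for CXCL5 and -0.242 for CXCL8. Each of these was smaller in size than the median of all peaks, 0.517. CXCL8, the furthest from 0, exceeded only 24.5% of all peaks in size. Read this way 3 peaks were lower and 2 higher, beside 48.6% lower of all 9450. Read as control over knockdown, 2 were lower and 3 higher, beside 50.1% lower.

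Of the 5 peaks, 1 had an FDR below 0.05 in the table the authors deposited, that of CXCL5, at 0.0447 and with lower m7G. At a threshold of 0.01, 0 of the 5 were called. Of all peaks, 2.18% were called lower and 3.07% higher. The size of the CXCL5 change, -0.206, corresponds to a ratio of 0.867. The CXCL8 peak changed by more, -0.242, with an FDR of 0.676. CXCL5 had at least 4191 and 11576 input reads in knockdown and control, against 44 and 147 for CXCL8, and the part of read number in the call was not tested. CXCL1 and CXCL2 also had an FDR of 0.676, and CCL20 one of 0.716. With a single IP and input library per line the authors' FDR cannot cover variation between cultures. Read as knockdown over control, the m7G changes correspond to ratios of 0.846 to 1.08. The input FPKM of these genes differed by a ratio of 0.155 to 0.326. Whether the m7G change is scaled to input is not stated, and its relation to the input levels was not tested.

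**Figure D5:**
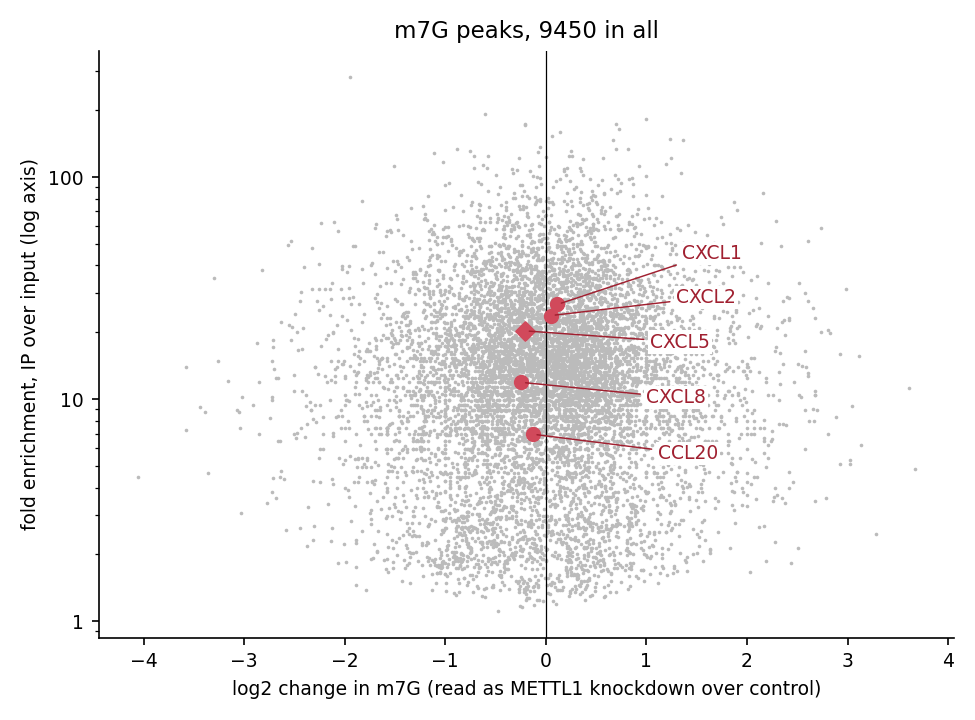
Log2 change in m7G, read as METTL1 knockdown over control (x axis), against the fold enrichment of IP over input (y axis, log) for all 9450 peaks (grey) and the 5 chemokines (red; the diamond is CXCL5, the one with an FDR under 0.05). The chemokines lie between -0.242 and 0.115, at enrichments of 6.95 to 26.7.

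Counts of 2-fold differences in the gene lists that follow are on the log2(FPKM + 1) scale, as above, and so are the ratios that rank their genes. Genes of low level that pass 2-fold only by plain FPKM are given beside them. On the log2(FPKM + 1) scale 7.92% of all co-culture genes were lower by 2-fold or more and 9.08% higher, against 0.56% lower and 0.429% higher in the knockdown. By plain FPKM 12.6% of the co-culture genes were lower by 2-fold or more and 14.1% higher, against 1.51% lower and 1.36% higher in the knockdown. Among the other chemokines, from a list of 30, 9 had a row in the co-culture table and 4 averaged 1 FPKM or more. Of these 4, 0 were lower by 2-fold or more in S-CAFs-w13 and 1 was higher. The median log2(FPKM + 1) ratio was -0.10, against -2.95 for the 6 members and 0.02 for all genes. CXCL16, a transmembrane chemokine that binds CXCR6, had the lowest ratio of these 4. It stood at 8.58 FPKM in S-CAFs-w13 and 16.6 FPKM in DLD1-W13CM, a log2(FPKM + 1) ratio of -0.87, and at 18.7 FPKM in METTL1 knockdown input and 25.6 FPKM in control input, a ratio of -0.43. CCL2, a monocyte attractant below the filter, was listed at 0 in S-CAFs-w13 and stood at 0.874 FPKM in DLD1-W13CM. The member nearest to the 2-fold line was CXCL8 in the knockdown, at -1.43. CCL26, an eosinophil attractant, was the one higher, at 14.4 FPKM in S-CAFs-w13 and 6.48 FPKM in DLD1-W13CM, 2.21-fold higher (1.41 to 3.57). For the knockdown, 3 of these chemokines had a row, and 0 were at least 2-fold lower or higher; for comparison 0.429% of all genes were at least 2-fold higher.

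PF4, a platelet chemokine, lies between CXCL1 and CXCL5 on chromosome 4. Of the 17 RefSeq genes in the span of the 5 CXC genes, 6 had a row in the co-culture table, the 5 members and PF4. It stood at 1.06 FPKM in S-CAFs-w13 and 2.35 FPKM in DLD1-W13CM. That is a plain ratio of 0.453, and its interval of 0.102 to 1.62 included no difference. In the knockdown table PF4 stood at 4.42 FPKM in METTL1 knockdown input and 4.91 FPKM in control input, with a ratio of 0.899 (0.529 to 1.53).

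The receptors of the members were low in DLD1. CXCR2 stood at 0.199 FPKM in S-CAFs-w13 and 1.07 FPKM in DLD1-W13CM, and CXCR1 at 0.0647 FPKM in S-CAFs-w13 and 0.127 FPKM in DLD1-W13CM. CCR6 had no row in either table and was not analysed here. Of 22 chemokine receptors 11 had a row in the co-culture table and 3 averaged 1 FPKM or more. These 3 were higher in S-CAFs-w13 by more than 2-fold in plain FPKM, though 1 on the log2(FPKM + 1) scale. CXCR5, the receptor of CXCL13, stood at 18.1 FPKM in S-CAFs-w13 and 8.37 FPKM in DLD1-W13CM, 2.16-fold higher (1.85 to 2.53). CXCR6, the receptor of CXCL16, was 2.78-fold higher (1.68 to 4.76) and the scavenging receptor ACKR4 3.06-fold higher (1.33 to 7.88), both below 3 FPKM. They passed the filter only through S-CAFs-w13, at 0.921 and 0.555 FPKM in DLD1-W13CM, so the direction follows in part from the filter. Below the filter, CXCR2, CCR3 and ACKR2 were lower in S-CAFs-w13 beyond their counting intervals, from few reads. The intervals of the other receptors below the filter included no difference. After knockdown 1 receptor had a row and it averaged below 1 FPKM.

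Upstream of the chemokines, 19 of 25 inducing cytokines and receptors had a row in the co-culture table and 11 passed the filter, 1 at least 2-fold lower, with a median log2(FPKM + 1) ratio of 0.22. The lower one was IL17RB, a receptor subunit for interleukin 25, at 1.27 FPKM in S-CAFs-w13 and 4.05 FPKM in DLD1-W13CM. TNFRSF1B and TNFRSF1A, the tumour necrosis factor receptors, had the highest ratios on this scale, with IL17RC close behind. TNFRSF1A stood at 30.1 FPKM in S-CAFs-w13 and 16.9 FPKM in DLD1-W13CM, and TNFRSF1B at 9.19 FPKM in S-CAFs-w13 and 4.82 FPKM in DLD1-W13CM. By plain FPKM the interleukin 17 receptor subunits were above them, IL17RE 2.35-fold higher (1.51 to 3.73) and IL17RC 2.28-fold higher (1.54 to 3.44). Those that passed were receptors and the antagonist IL1RN, while the inducing cytokines with a row were below the filter. Of these, TNF stood at 0.192 FPKM in S-CAFs-w13 and 1.32 FPKM in DLD1-W13CM, and IL17C was listed at 0 in S-CAFs-w13 and stood at 1.37 FPKM in DLD1-W13CM. IL1A stood at 0.303 FPKM in S-CAFs-w13 and 0.966 FPKM in DLD1-W13CM, and LTB at 0.105 FPKM in S-CAFs-w13 and 0.822 FPKM in DLD1-W13CM. IL1B stood at 0.208 FPKM in S-CAFs-w13 and 0.153 FPKM in DLD1-W13CM, and each cytokine value rests on few reads. In the knockdown 7 passed, 0 at least 2-fold lower and 1 higher, with a median of 0.3. That one was IL1RN, the antagonist that blocks the interleukin 1 receptor, at 2.01 FPKM in METTL1 knockdown input and 0.411 FPKM in control input, 4.88-fold higher (2.74 to 9.35). IL1RN passed the filter only through METTL1 knockdown input, so its direction follows in part from the filter. TNFRSF1B was 2.07-fold higher in plain FPKM (1.56 to 2.75). Of the 7, 3 had a log2(FPKM + 1) ratio below 0. The cytokine LTB had the lowest, at 2.30 FPKM in METTL1 knockdown input and 3.86 FPKM in control input. Its plain ratio was 0.595 (0.391 to 0.897). TNFRSF1A was next, at 9.67 FPKM in METTL1 knockdown input and 13.45 FPKM in control input, a plain ratio of 0.719 (0.634 to 0.815).

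Of 21 signal adaptors and kinases, 20 passed in the co-culture, 1 at least 2-fold lower and 0 higher, with a median of -0.09. The adaptor MYD88, which links interleukin 1 and Toll-like receptors to their kinases, was the lower one, at 3.95 FPKM in S-CAFs-w13 and 9.34 FPKM in DLD1-W13CM. IKBKB, a kinase that frees NF-kB, had the highest ratio, at 7.79 FPKM in S-CAFs-w13 and 3.48 FPKM in DLD1-W13CM, which is 2.24-fold higher in plain FPKM (1.91 to 2.63). The kinase IRAK4 stood at 1.06 FPKM in S-CAFs-w13 and 2.61 FPKM in DLD1-W13CM, a plain ratio of 0.406 (0.269 to 0.6). In the knockdown 14 passed, 0 past 2-fold in either direction, with a median of -0.09. TNFAIP3, a feedback inhibitor, had the lowest ratio on this scale, at 7.70 FPKM in METTL1 knockdown input and 13.9 FPKM in control input. By plain FPKM BIRC3, a ubiquitin ligase of the same pathway, was lower, at 1.28 FPKM in METTL1 knockdown input and 2.65 FPKM in control input, 2.07-fold lower (1.63 to 2.62).

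Of 17 NF-kB subunits and partners, all passed in the co-culture, 4 at least 2-fold lower and 1 higher, with a median of 0.02. NFKBIZ stood at 3.71 FPKM in S-CAFs-w13 and 23.3 FPKM in DLD1-W13CM, and the inhibitor NFKBIA at 8.47 FPKM in S-CAFs-w13 and 32.6 FPKM in DLD1-W13CM. The other lower ones were NFKB1, at 3.11 FPKM in S-CAFs-w13 and 10.6 FPKM in DLD1-W13CM, and the AP-1 subunit FOS, at 3.23 FPKM in S-CAFs-w13 and 8.92 FPKM in DLD1-W13CM. FOSL1, a relative of FOS, was the higher one, at 70.2 FPKM in S-CAFs-w13 and 34 FPKM in DLD1-W13CM. In the knockdown 16 passed, 0 at least 2-fold lower and 1 higher. Of the 16, 11 were below 0, with a median of -0.24, against a median of 0.006 over all 8400 genes. RELB had the lowest ratio, at 15.2 FPKM in METTL1 knockdown input and 24.4 FPKM in control input. FOS was the higher one, opposite to its place in the co-culture, at 7.31 FPKM in METTL1 knockdown input and 3.13 FPKM in control input.

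Of 21 factors that stabilize or degrade short-lived mRNAs, 20 passed in the co-culture. Of these, 4 were at least 2-fold higher and 2 lower in S-CAFs-w13, with a median of 0.29. ZFP36L1 and ZFP36, which bind AU-rich elements and recruit the decay machinery, were the highest. ZFP36L1 stood at 208.7 FPKM in S-CAFs-w13 and 50.3 FPKM in DLD1-W13CM, 4.15-fold higher (3.93 to 4.38). ZFP36 stood at 92.1 FPKM in S-CAFs-w13 and 26.8 FPKM in DLD1-W13CM, 3.44-fold higher (3.05 to 3.9). The lower ones were ZC3H12A and HNRNPD, another AU-rich element binder, at 11.4 FPKM in S-CAFs-w13 and 24.5 FPKM in DLD1-W13CM. In the knockdown 19 passed, ZC3H12A alone at least 2-fold lower, 2.65-fold, and 0 higher, with a median of 0.003.

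Of 17 other secreted proteins linked to neutrophils, 11 passed in the co-culture, 5 at least 2-fold lower and 2 higher, with a median of -0.74. PI3 and the complement protein C3 had the lowest ratios, C3 at 1.49 FPKM in S-CAFs-w13 and 11.2 FPKM in DLD1-W13CM. CSF2, the growth factor GM-CSF, went the other way, at 4.29 FPKM in S-CAFs-w13 and 0.401 FPKM in DLD1-W13CM, 10.7-fold higher with an interval of 2.62 to 94.2. IL23A, a subunit of the cytokine that sustains Th17 cells, stood at 2.71 FPKM in S-CAFs-w13 and 0.797 FPKM in DLD1-W13CM. CSF2 and IL23A passed the filter only through S-CAFs-w13, so their direction follows in part from the filter. S100A9, a neutrophil protein, was 2.04-fold higher in plain FPKM, with an interval of 0.948 to 4.66 that included no difference. In the knockdown 6 passed, 3 at least 2-fold lower and 0 higher, with a median of -1.12. The lowest was LCN2, an iron-binding protein of innate defence, at 39.2 FPKM in METTL1 knockdown input and 163.4 FPKM in control input.

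Few of the enzymes that cut chemokines passed the filter. Of 15 listed, 4 passed in the co-culture and 3 in the knockdown, 0 past 2-fold in either, with medians of 0.26 and 0.28. The protease ADAM10, which sheds transmembrane chemokines, had the highest ratio in each, at 19.9 FPKM in S-CAFs-w13 and 11.8 FPKM in DLD1-W13CM, and at 10.3 FPKM in METTL1 knockdown input and 7.95 FPKM in control input. Below the filter in the co-culture, DPP4 was 2.62-fold higher in S-CAFs-w13 (1.38 to 5.26). CTSS was lower there, with a plain ratio of 0.376 (0.134 to 0.933), and both rest on few reads. The intervals of the other enzymes below the filter included no difference.

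The co-culture libraries carried some markers of the colon epithelial list at high levels, others at low levels, and those of other cell types at low ones. The part of these differences in the chemokine values was not tested. The 11 of 12 epithelial markers with a row summed to 3199 FPKM in S-CAFs-w13 and 2093 FPKM in DLD1-W13CM. Most of each sum was KRT8 and KRT18. KRT8 stood at 1051 FPKM in S-CAFs-w13 and 754.1 FPKM in DLD1-W13CM, and KRT18 at 1593 FPKM in S-CAFs-w13 and 892.3 FPKM in DLD1-W13CM. Of the 11 markers, 9 passed the filter, 1 at least 2-fold lower and 2 higher. The lower one was CDX2, at 6.83 FPKM in S-CAFs-w13 and 18.99 FPKM in DLD1-W13CM. The higher ones were CEACAM5, at 4.13 FPKM in S-CAFs-w13 and 0.848 FPKM in DLD1-W13CM, and KRT19, at 273.2 FPKM in S-CAFs-w13 and 120.4 FPKM in DLD1-W13CM. The 7 of 15 fibroblast markers with a row summed to 5.18 FPKM in S-CAFs-w13 and 5.56 FPKM in DLD1-W13CM, and 2 passed the filter. These were FN1, at 1.71 FPKM in S-CAFs-w13 and 3.12 FPKM in DLD1-W13CM, and ACTA2, at 1.51 FPKM in S-CAFs-w13 and 1.8 FPKM in DLD1-W13CM. Below the filter, COL1A1 stood at 0.229 FPKM in S-CAFs-w13 and 0.0482 FPKM in DLD1-W13CM, and PDGFRB at 0.564 FPKM in S-CAFs-w13 and 0.0221 FPKM in DLD1-W13CM. COL6A1 stood at 0.331 FPKM in S-CAFs-w13 and 0.0295 FPKM in DLD1-W13CM. In plain FPKM COL1A1 was 4.76-fold higher (1.33 to 25.8), PDGFRB 25.5-fold (4.17 to 1047) and COL6A1 11.2-fold (1.63 to 482.8), all from few reads. The intervals of VIM and COL6A3 included no difference. Of the 10 neutrophil markers 3 had a row and summed to 0.378 FPKM in S-CAFs-w13 and 1.2 FPKM in DLD1-W13CM, most of the second sum being CXCR2, and with CSF3R listed at 0 in DLD1-W13CM. The 3 of 10 T cell markers with a row summed to 0.238 FPKM in S-CAFs-w13 and 0.301 FPKM in DLD1-W13CM. The 4 of 10 macrophage markers summed to 3.63 FPKM in S-CAFs-w13 and 2.63 FPKM in DLD1-W13CM. Of these ITGAX, below the filter, stood at 1.02 FPKM in S-CAFs-w13 and 0.0223 FPKM in DLD1-W13CM, 45.9-fold higher (7.83 to 1852). The intervals of the other macrophage markers included no difference. The 6 of 10 endothelial markers summed to 2.41 FPKM in S-CAFs-w13 and 1.83 FPKM in DLD1-W13CM, with CLDN5 listed at 0 in S-CAFs-w13. In the knockdown table the 7 epithelial markers with a row summed to 3521 FPKM in METTL1 knockdown input and 2956 FPKM in control input, and 0 markers of the other cell types had a row. Only genes with a listed m7G peak have a row there, so a missing row does not show a low level. METTL1 stood at 1.78 FPKM in S-CAFs-w13 and 4.82 FPKM in DLD1-W13CM, 2.71-fold lower (1.75 to 4.29), beside the chemokines, and its part in their levels was not tested.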

How the data were processed

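Both tables are the authors' own, with 1 library per group. Per the submitters' processing notes, cutadapt 2.5, HISAT2 2.1.0, featureCounts 1.6.3, DESeq2, SAMtools 1.10 and HOMER 4.10.4 were used with the builds GRCh38, hg38 and GRCm38; the role of each and the peak caller are not stated there. The authors deposited FPKM for the co-culture libraries; the unit of the input columns of the knockdown table was inferred to be FPKM as well. The deposited log2 fold changes and p-values are the authors', per the file headers, as are the fold enrichment (a ratio), the log2 m7G change, its FDR, the log10 of the peak p-value, and the score of each peak.

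Expression was compared as log2((FPKM + 1)/(FPKM + 1)) over genes that averaged 1 FPKM or more, using Python 3.11.15, pandas 2.3.3, numpy 2.4.6 and SciPy 1.17.1. Folds and intervals are plain FPKM ratios. For each of 20806 of 20806 co-culture genes and 9348 of 9348 knockdown genes with no value at 0, the FPKM ratio equalled a constant times a ratio of whole numbers (relative tolerance 1e-13). RefSeq lengths of mitochondrial genes then gave effective library sizes of 6215547 (S-CAFs-w13), 6337932 (DLD1-W13CM), 11625162 (METTL1 knockdown input) and 10454179 (control input), a size that 6 of 15 mitochondrial genes shared. The smallest whole read numbers that leave the gene length whole, and equal in both tables, gave exact (Clopper-Pearson) intervals; true reads may be whole multiples, so intervals are at their widest. On simulated data the ratio was recovered for 100% of 20544 genes (co-culture) and 9386 genes (knockdown). The tolerance and the sequence patterns were chosen after seeing the data.

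Named genes were all 6 members, METTL1, WDR4, the receptors CXCR1, CXCR2 and CCR6, up to 2 highest and 2 lowest genes of each list, the genes at least 2-fold lower in both comparisons and the 8 nearest to the members' median; NFKB1 and FOS in the co-culture, genes past 2-fold by plain FPKM alone, IL17RC, cytokines, CCL2 and markers below the filter were named after their values were seen. KRT8, KRT18, DPP4 and CTSS were also named after their values were seen. The members and lists were chosen with earlier results of these data known. Alternatives tried were the pseudocount, the filter, the authors' scaling, rescaling without the mitochondrial genome, summing CXCL1 to CXCL3, the m7G threshold and its direction. Protein sequences were not used here.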

Additional observations from a re-analysis of the deposited data

How the results depend on the processing

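All 6 chemokines stayed lower in S-CAFs-w13 by 2-fold or more with a pseudocount of 0.1 FPKM, with no filter, at an average of 5 FPKM or more, with the authors' log2 fold changes and when rescaled without the mitochondrial genome, where 12.1%, 5.98%, 7.34%, 16.2% and 13.6% of all genes were. Those last settings moved the median log2 ratio of all genes to -0.12 and -0.17, against 0.02. In METTL1 knockdown input the count of 5 was kept except at an average of 5 FPKM or more, where CXCL8 and CCL20 were filtered out and 3 of 3 remained; the share of all genes was 1.33% with the smaller pseudocount, 0.646% with no filter, 0.282% at 5 FPKM and 1.57% with the authors' values, against 0.56%. With CXCL1, CXCL2 and, where listed, CXCL3 summed into 1 value, 4 of 4 values were at least 2-fold lower in each comparison. All 28 alternative log2 ratios of single members were below -1, between -5.79 and -1.62; CXCL5 in the co-culture moved beyond its counting interval, to -2.20 and -2.29. Looser m7G thresholds, an FDR of 0.1 or a p-value of 0.05, called no member beside CXCL5, and at a stricter FDR of 0.01, chosen after seeing the data, 0 of 5 were called. Read as control over knockdown, 1 of 5 peaks was still called, but higher in place of lower. Rescaling was not run for the knockdown table, which holds no mitochondrial genes. No replicate could be left out, and no paired analysis was possible because each group held 1 library. Depth limits CCL20 most, at 2 or more reads in S-CAFs-w13.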
